A study of Mus musculus with 2 samples.

Results

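The 8 genes described here encode proteins that build, tune or accompany the B cell receptor: Cd79a, Cd79b, Cr2, Cd22, Cd72, Ms4a1, Cd37 and Cd180. They were grouped by the function of their products, not by their values, and they are 8 of 21938 protein-coding genes in the GENCODE M21 annotation of the mouse genome (build mm10). Chromatin accessibility at these genes was measured by DNase-seq in whole spleen from 2 male mice of the F1 hybrid strain B6CASTF1/J, aged 2 months, 1 library per animal. The labels name no treatment, no engineered allele and no sorting step, and both libraries form 1 group, so no condition is compared and no test between groups was possible. The animals are called animal 1 and animal 2 after their biological replicate numbers.

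For each gene, every DNase peak overlapping the gene body or the 20 kb on either side was taken from the longer of the 2 deposited peak lists. A peak within 1 kb of any annotated start of the gene is called a promoter peak. A peak near the start of another gene only is counted apart, and all others are called distal. Height is the signal value that the authors deposited for each peak. Its unit is not stated in words, and the read depth behind it is not given, so no counting interval can be attached. The 2 lists held 79246 peaks in animal 1 and 77231 in animal 2, and the 8 windows held 74 and 65 of them. A mean ± SD here covers these 2 animals only, and their labels share 1 donor entry beside separate animal numbers, so biological and technical spread cannot be told apart. How reads from the CAST/EiJ alleles mapped to the reference was not tested.

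The B cell receptor is a membrane immunoglobulin that carries almost no signalling domain of its own. Cd79a and Cd79b form the signalling pair that couples it to the kinases Lyn and Syk. Cr2 (CD21/CD35) binds complement fragments and lowers the threshold for activation, while Cd22 and Cd72 carry inhibitory motifs that recruit the phosphatase Ptpn6. The spleen is rich in mature B cells, and it also holds T cells, macrophages, other myeloid cells and red-cell precursors.

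All 8 genes carried a promoter peak in each animal. Over all protein-coding genes, 61.4% had one in animal 1, 62.6% in animal 2 and 59.8% in both. The strongest promoter peak ranged over the 8 genes from 2.49 to 11.98 in animal 1 and from 2.43 to 12.9 in animal 2. Their median was 5.80 and 5.13, against 5.62 and 6.63 for all genes with a promoter peak, so the set was slightly above the median of open genes in animal 1 and below it in animal 2. Since the tissue is a mixture, fewer open cells and weaker opening per cell cannot be told apart.

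The order of the genes was led by Cr2 with 12.4 ± 0.620. Cd79b with 9.29 ± 0.0954 and Cd79a with 9.16 ± 0.287 followed, and these 2 did not differ beyond their spread. Cd37 came next with 5.87 ± 0.700, then Cd22 with 4.45 ± 0.620 and Ms4a1 with 4.16 ± 1.52. The values of Ms4a1 enclosed both values of Cd22, and in animal 2 its 3.08 was next to the 3.07 of Cd72. Cd72 with 3.003 ± 0.0934 and Cd180 with 2.46 ± 0.0439 were the lowest of the 8, each with its animals close together.

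**Figure D1:**
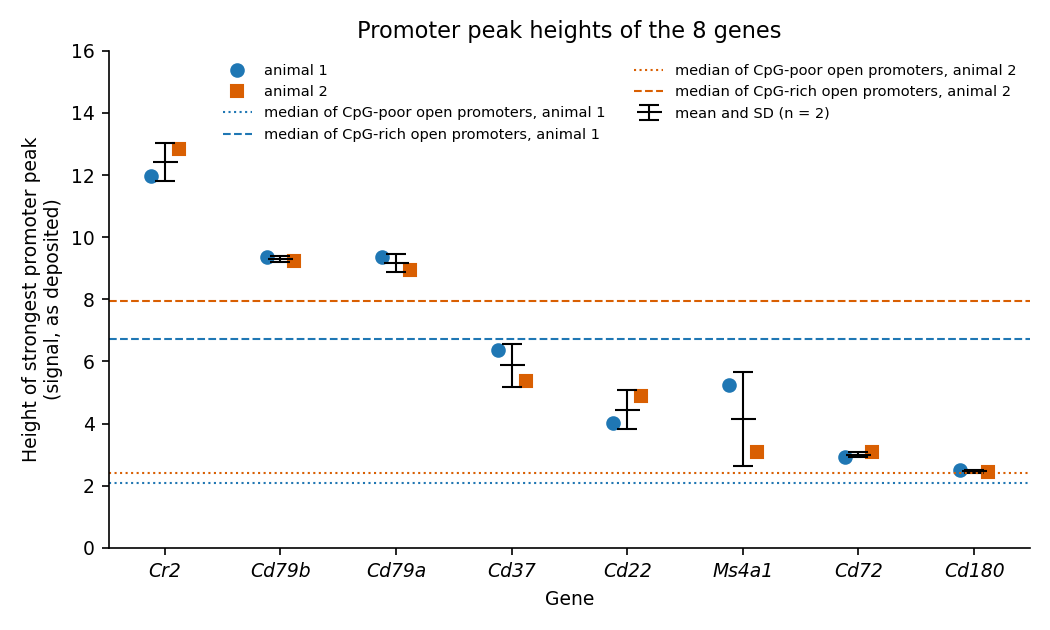
Height of the strongest promoter peak (signal, as deposited) for each gene, with animal 1 as circles, animal 2 as squares and the mean with its SD in black (n = 2). Dotted and dashed lines are the medians of CpG-poor and CpG-rich open promoters in each animal; all 8 genes lie above the dotted line of the same animal, and only Cr2, Cd79b and Cd79a lie above the dashed one.

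What the promoters shared was a low content of CpG dinucleotides. In the central 200 bp of the promoter peak, the ratio of observed to expected CpG ranged from 0.167 in Cd79b to 0.609 in Cr2, in both animals. The median over all open promoters was 0.806 in animal 1 and 0.812 in animal 2, and at most 25.3% of open promoters had a lower ratio than Cr2. Open promoters with a ratio below 0.65 had a median height of 2.08 in animal 1 and 2.40 in animal 2, against 6.71 and 7.96 for those at or above it. All 8 genes were above the CpG-poor median in both animals, which by its definition splits those promoters evenly. Cr2 was higher than 94.5% and 93.7% of CpG-poor promoters, Cd79a than 89.8% and 86.0%, and Cd180 than 54.9% and 50.2%. The limit of 0.65 was set after the values of the 8 genes were seen, so this is a description.

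Cd79a encodes the Igα chain, and its promoter is a classic target of the B cell factor EBF1. Its strongest peak, at chr7:24897241-24897520, covered the start, with a height of 9.36 in animal 1 and 8.96 in animal 2. A second, low peak at -920 bp reached 1.81 and 1.66. The part of the main peak upstream of the start is shown here because a wide footprint, a stretch protected from cutting, lay at the same place in both animals. The sequence is chr7:24897241-24897380 on the plus strand, with the bases that fell inside a footprint in both animals in capitals.
Cd79a promoter: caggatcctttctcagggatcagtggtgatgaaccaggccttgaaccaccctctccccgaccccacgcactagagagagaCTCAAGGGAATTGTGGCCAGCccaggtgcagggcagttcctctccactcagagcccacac
The footprint measured 32 bp in animal 1 and 21 bp in animal 2, and both were centred at -50 bp. The strict EBF1 core searched here, CCCNNGGGA, had no exact match in this peak. The capitals begin with CTCAAGGGA, which differs from that core at 1 base, and such near matches were not counted. An E protein core, CAGGTG, lay at -38 to -33 bp, just outside the capitals.

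Cd79b encodes Igβ, the partner chain. Its strongest peak, chr11:106314501-106314720, was 9.36 high in animal 1 and 9.23 in animal 2. Its midpoint lay in an exon, 151 bp downstream of the most upstream start, and the second annotated start of the gene fell inside the peak. The widest stretch protected in both animals, chr11:106314630-106314646 on the minus strand, is short. It is shown because these 17 reference bases fell inside a footprint in each animal.
Cd79b exon footprint: AGGGTCCCTGGAGGGAT
This peak also held 1 match each to the EBF1 core, the E protein core CAGCTG and the octamer ATTTGCAT. The octamer was in 1.32% of all promoter peaks cut to the same length in animal 1 and 1.12% in animal 2. The EBF1 core was in 6.98% and 6.95%, and CAGCTG in 12.5% and 12.5%. Of these 3 cores, only EBF1 matched within a footprint widened by 5 bp, and in animal 2 alone. A second peak in the gene, at 1021 bp, reached 4.70 and 4.22.

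Cd79b stood out by its distal peaks. The compact gene of 3422 bp had 7 distal peaks in animal 1 and the same number in animal 2, and each of them was found in both. Their density of 1.61 per 10 kb was above that of 98.6% and 98.5% of all protein-coding genes. The highest, at 6411 bp, past the end of the gene, was 8.28 in animal 1 and 8.60 in animal 2, almost as high as the promoter. Its neighbour at 4521 bp reached 6.68 and 6.01. On the other side, within introns of Scn4a, a sodium channel gene of muscle, peaks at -10299 and -11249 bp reached 6.82 and 5.88 in animal 1 and 8.15 and 6.55 in animal 2. The highest distal peak is shown as chr11:106308241-106308460 on the minus strand, where 1 base at its edge was inside a footprint in both animals.
Cd79b distal peak: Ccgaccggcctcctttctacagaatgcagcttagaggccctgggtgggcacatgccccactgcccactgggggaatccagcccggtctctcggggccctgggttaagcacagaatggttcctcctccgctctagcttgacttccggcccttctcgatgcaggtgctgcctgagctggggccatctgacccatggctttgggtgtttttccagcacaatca
It held an ETS core, CCGGAAGT read on the other strand, at 6440 to 6447 bp. That core was in 0.731% of all distal peaks in animal 1 and 0.750% in animal 2, measured in their central 200 bp. The peak also held commoner cores, CAGGTG, in 19.7% and 21.6% of all distal peaks, and PU.1 (GAGGAA), in 29.3% and 26.5%. None of these cores lay inside a footprint common to both animals.

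Cr2 had the highest promoter of the 8 and the emptiest surroundings. Its promoter peak, chr1:195176661-195176860, was 11.98 high in animal 1 and 12.9 in animal 2. It held 3 footprints in each animal, and all 3 overlapped between them. The upstream part is chr1:195176717-195176860 on the minus strand, with capitals as before.
Cr2 promoter: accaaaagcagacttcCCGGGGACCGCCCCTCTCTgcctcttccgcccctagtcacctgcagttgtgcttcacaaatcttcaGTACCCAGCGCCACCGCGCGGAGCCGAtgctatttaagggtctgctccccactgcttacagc
The nearest footprint upstream of the start spanned 27 bp in animal 1 and 33 bp in animal 2. The one farther upstream held a GC box, GGGCGG read on the other strand, at -121 to -116 bp. The remaining 38906 bp of the gene body, beyond 1 kb from the start, had no peak in either animal. They also held no listed cut-rate interval, that is none with a false discovery rate (FDR) under 0.05. Of 2477 genes with a promoter peak in both animals and a body of 30 to 60 kb past its first 1 kb, 20.9% likewise had no peak there in either animal. Upstream, the only distal peak, at -1564 bp, was 0.752 high in animal 1 and had no counterpart in animal 2.

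Cd22 encodes a sialic acid-binding inhibitory receptor. Its strongest promoter peak, chr7:30880241-30880420 in animal 1, reached 4.01, and the matching peak in animal 2 reached 4.89. The upstream stretch, chr7:30880343-30880420 on the minus strand, is shown with the footprint common to both animals in capitals.
Cd22 promoter: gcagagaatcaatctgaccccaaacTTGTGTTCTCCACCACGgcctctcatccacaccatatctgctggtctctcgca
A second footprint, centred at 22 and 20 bp past the start, had the PU.1 core GAGGAA within 5 bp of it in both animals. A peak at 1231 bp, with its midpoint in an intron, was 2.84 and 2.81 high. It covered another annotated start of the gene and so counted as a promoter peak. It held a 21 bp footprint with an EBF1 match in each animal. That of animal 1, chr7:30879063-30879083 on the minus strand, is shown with the matched bases in capitals.
Cd22 intron footprint: gcaagaTCCCTGGGGActcac
Another peak, at 7051 bp, was 2.79 in animal 1 and 4.45 in animal 2. It counted as promoter through transcripts that start inside the gene, and the antisense RNA Gm29439 starts there as well.

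Cd22 also had a high upstream peak at -7429 bp, 6.95 in animal 1 and 5.12 in animal 2, which in both animals was higher than the promoter. The highest distal peak of animal 2 was another, at 20891 bp in an exon of Ffar1, a fatty acid receptor gene, with 4.16 in animal 1 and 6.40 in animal 2. The animals therefore ordered these 2 sites differently. Cd22 had 7 distal peaks in animal 1 and 5 in animal 2.

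Cd72 encodes a lectin-like inhibitory receptor. Its promoter peak, chr4:43454521-43454780 in animal 1, was 2.94 high, and that of animal 2 was 3.07. A distal peak at -2043 bp was higher, 5.60 and 6.69, and one at -2623 bp reached 3.48 and 4.71. When the promoter was widened to 2 kb, the first of these became its promoter peak and the mean height rose from 3.003 to 6.14. The distal peak at 22767 bp had the largest ratio between the animals among all 55 matched sites, 2.77 in animal 1 and 5.09 in animal 2, a log2 ratio of 0.88.

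Ms4a1 encodes CD20, the surface protein targeted by rituximab. Its promoter peak, chr19:11266101-11266420 in animal 1, was 5.23 high there and 3.08 in animal 2. This log2 ratio of -0.76 was the lowest of the 55 matched sites, and 1.56% of all matched peaks had a lower one. A peak at -450 bp reached 3.06 and 2.65. The distal peaks of Ms4a1 were low, 4 in animal 1 and 1 in animal 2, with the highest, at 21780 bp, at 1.89 and 1.27.

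Cd37 encodes a tetraspanin of mature B cells. It had paired peaks around its start, at -196 bp with 6.37 in animal 1, matched by 5.38 in animal 2, and at 314 bp with 5.43 and 4.63. Both were higher in animal 1. Near the 3′ end, a peak at 5354 bp reached 1.504 and 2.19. It held a footprint of 17 bp in animal 1 and 19 bp in animal 2 with an EBF1 core in both. That of animal 1, chr7:45233787-45233803 on the minus strand, is shown with the matched bases in capitals.
Cd37 exon footprint: aTCCCCTGGGGAcccag
The highest distal peak, at 9114 bp in an intron of Tead2, was 3.34 and 2.97. In the central 200 bp, the EBF1 core was in 2 of 38 distal peaks of the whole gene set (5.26%) in animal 1. In animal 2 it was in 2 of 29 (6.90%). Over all distal peaks the shares were 5.18% and 5.30%, close to these counts.

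Cd180 encodes RP105, a Toll-like receptor homologue that pairs with Ly86 (MD-1). Its promoter was the lowest of the 8, 2.49 in animal 1 and 2.43 in animal 2. In animal 1, the list gave a peak at chr13:102693301-102693860 and a smaller one inside it, and in animal 2 the same stretch was 2 separate peaks of 2.40 and 2.43. In contrast to its promoter, Cd180 had the highest number of distal peaks of the 8, 10 in animal 1 and 8 in animal 2. Its window was the widest, and per 10 kb it had 1.16 and 0.929, fewer than Cd79b in both animals and than Cd22 with 1.27 in animal 1. Most of them lay upstream or in the first part of the gene, with heights between 0.604 and 4.56. The highest, at -14857 bp, was 3.58 and 4.56, above the promoter in both animals.

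**Figure D2:**
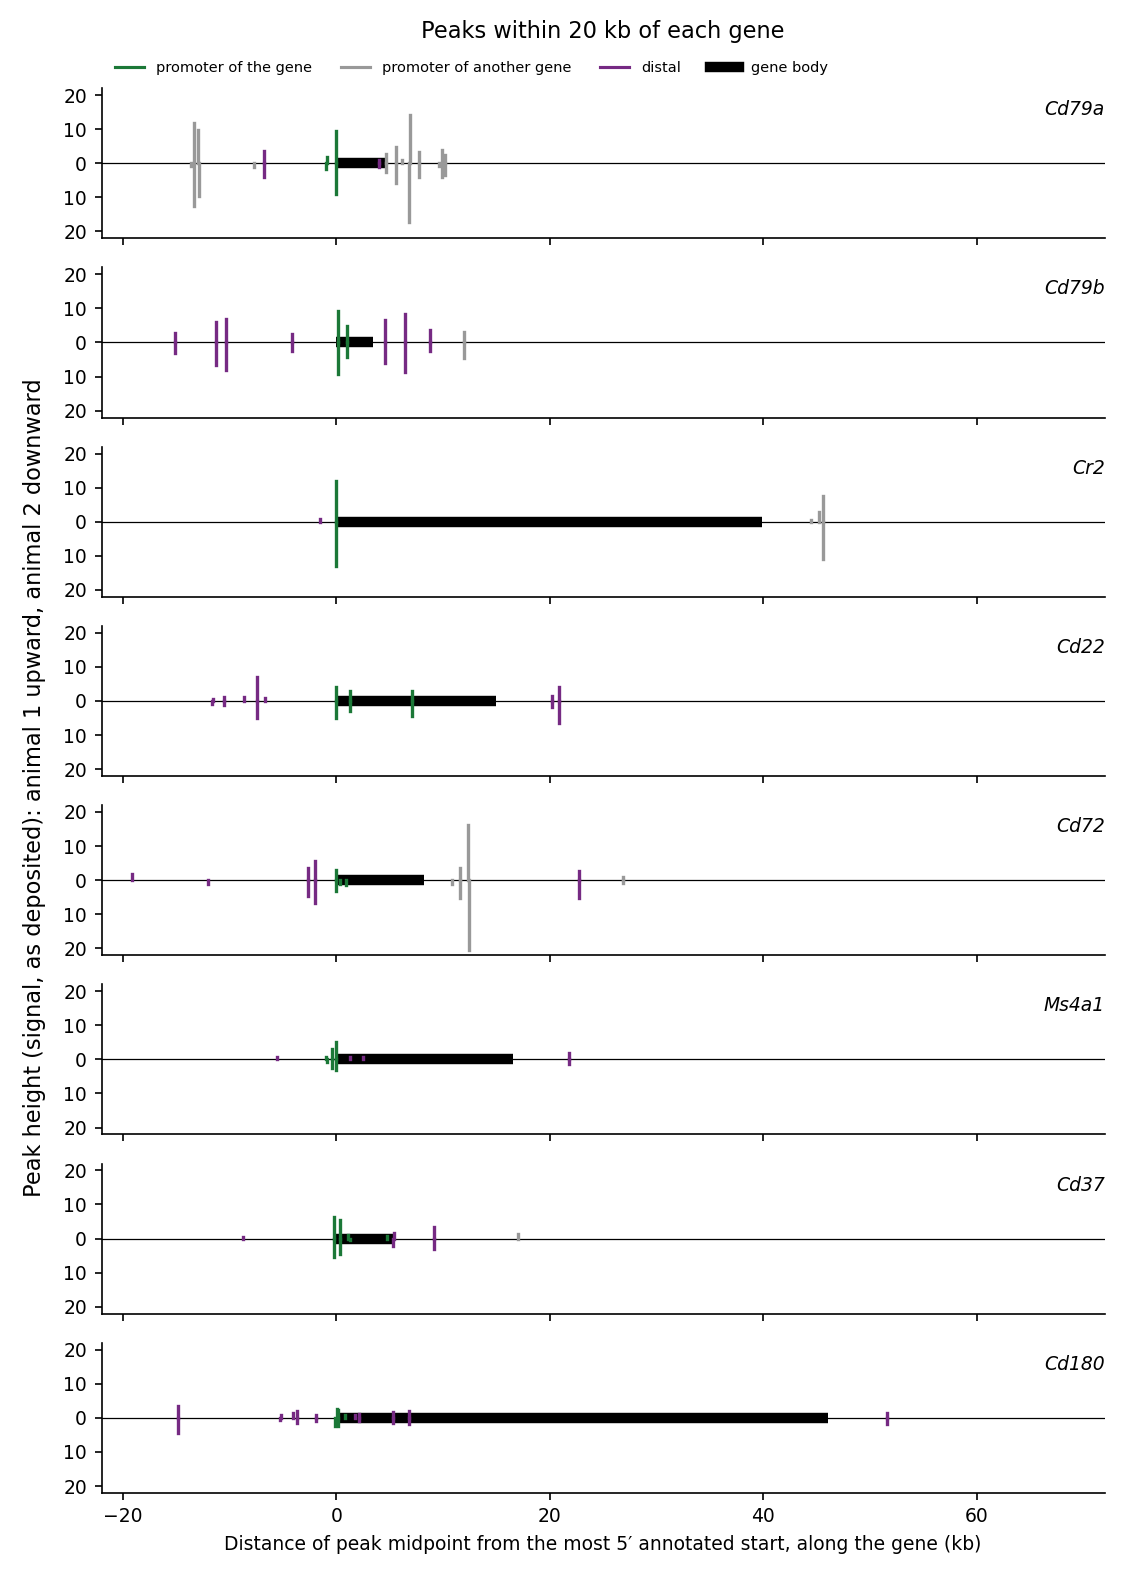
Peaks in the window of each gene, by distance of the peak midpoint from the most upstream annotated start (kb) and height (signal, as deposited), with animal 1 upward and animal 2 downward; colours mark the gene's promoter, another gene's promoter and distal peaks, and the black bar is the gene body. Cd79b has tall distal peaks on both sides, the body of Cr2 is empty, and most peaks around Cd79a belong to the promoters of Rps19 and Arhgef1.

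Over the 8 windows, 19 peaks were promoter peaks in each animal, 17 were promoters of other genes in each, and 38 and 29 were distal. At least 1 distal peak was present at 8 of 8 genes in animal 1 and at 7 of 8 in animal 2, where Cr2 had none. The share over all protein-coding genes was 69.6% and 69.2%. The median gene of the 8 had 4 and 3 distal peaks, against 1 and 1 over all protein-coding genes, or 0.769 and 0.638 per 10 kb against 0.212 and 0.202. Distal peaks at these genes had a median height of 1.73 and 2.36, against 0.731 and 0.842 for all distal peaks. The counts follow the window: the mean of 33.5 distal peaks became 55 with 50 kb on either side and 6.5 within the gene bodies alone.

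Wide footprints of 25 bp or more with a CTCF-type core, AGGNGGC, recurred at 4 distal sites in both animals. They are shown over 120 bp each, since the footprints of the animals overlapped there. The letters are those of the reference genome, and the sequence of the animals themselves was not read. The stretches are chr7:24890576-24890695 (plus strand, upstream of Cd79a), chr11:106329861-106329980 (minus strand, in an intron of Scn4a), chr13:102678636-102678755 (plus strand, upstream of Cd180) and chr13:102745052-102745171 (plus strand, in an intron of Mast4).
Cd79a upstream: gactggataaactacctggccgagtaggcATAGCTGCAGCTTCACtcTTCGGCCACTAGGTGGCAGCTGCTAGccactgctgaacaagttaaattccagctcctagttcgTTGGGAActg
Cd79b upstream: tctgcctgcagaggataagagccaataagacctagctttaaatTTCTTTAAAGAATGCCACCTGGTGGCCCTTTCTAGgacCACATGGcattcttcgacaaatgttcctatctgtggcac
Cd180 upstream: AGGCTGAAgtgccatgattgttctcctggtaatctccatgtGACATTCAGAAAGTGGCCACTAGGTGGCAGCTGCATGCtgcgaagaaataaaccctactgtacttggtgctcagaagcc
Cd180 downstream: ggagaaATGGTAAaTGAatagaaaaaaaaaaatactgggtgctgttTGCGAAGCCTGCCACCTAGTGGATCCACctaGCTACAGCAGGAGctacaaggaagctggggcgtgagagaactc
CTCF is a zinc finger protein that bounds chromatin loops. The core was in 4 of 13 wide distal footprints of these genes in animal 1 and 4 of 16 in animal 2. Over all distal peaks it was in 31.6% and 28.9% of such footprints, close to these counts. In promoter peaks of these genes it was in 1 of 4 wide footprints in animal 1 and 2 of 5 in animal 2. The shares over all promoter peaks were 15.9% and 15.5%. Among these promoter peaks, that of Cd22 at 7051 bp held such a footprint in both animals. This core was chosen after the footprints were read, and occupancy by CTCF was not measured.

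Of the motifs of B cell factors searched on both strands of the whole promoter peak, EBF1 matched at 3 of 8 genes in both animals (Cd79b, Ms4a1 and Cd37). The mean share over all promoter peaks cut to the same lengths was 9.14% in animal 1 and 7.47% in animal 2. A footprint widened by 5 bp held the EBF1 match at Ms4a1 in both animals, at Cd79b in animal 2 only and at Cd37 in neither. PU.1 matched at 5 of 8 genes in both, against 26.5% and 21.5%. The E protein core CAGGTG matched at 4 of 8 in both, against 18.6% and 15.4%, and CAGCTG at 3 of 8, against 16.1% and 13.7%. The composite PU.1-IRF core, GAANNGAAA, matched at 3 and 2 genes, against 5.97% and 4.12%. The GC box went the other way, with 2 and 1 of 8 genes against 65.9% and 64.2%. The RUNX core TGTGGT matched at 1 gene in each animal, against 12.4% and 9.68%. No member had a match to the cores of ETS, NF-kB (GGGANTTTC), MEF2 (CTAAAAATA), AP-1 (TGANTCA) or the TATA box (TATAAA), which says only that those letters are absent from these windows. Over all promoter peaks cut to the same lengths, ETS was in 7.99% and 7.62% and the TATA box in 4.46% and 2.87%. AP-1 was in 4.06% and 3.09%, NF-kB in 1.09% and 0.879% and MEF2 in 0.167% and 0.115%. With shares this low, an absence from 8 genes carries little information.

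The same cores were counted in the CpG-poor promoters. In the central 200 bp, these held the EBF1 core in 6.86% and 6.85%, PU.1 in 26.1% and 25.5%, CAGGTG in 17.4% and 17.5% and the GC box in 36.8% and 38.2%. In the same window, the 8 genes had 3 and 3 EBF1 matches, 4 and 5 PU.1 matches, 4 and 4 CAGGTG matches and 1 and 1 GC box matches. The PU.1 and PU.1-IRF cores can overlap in part, so their counts are not fully separate.

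**Figure D3:**
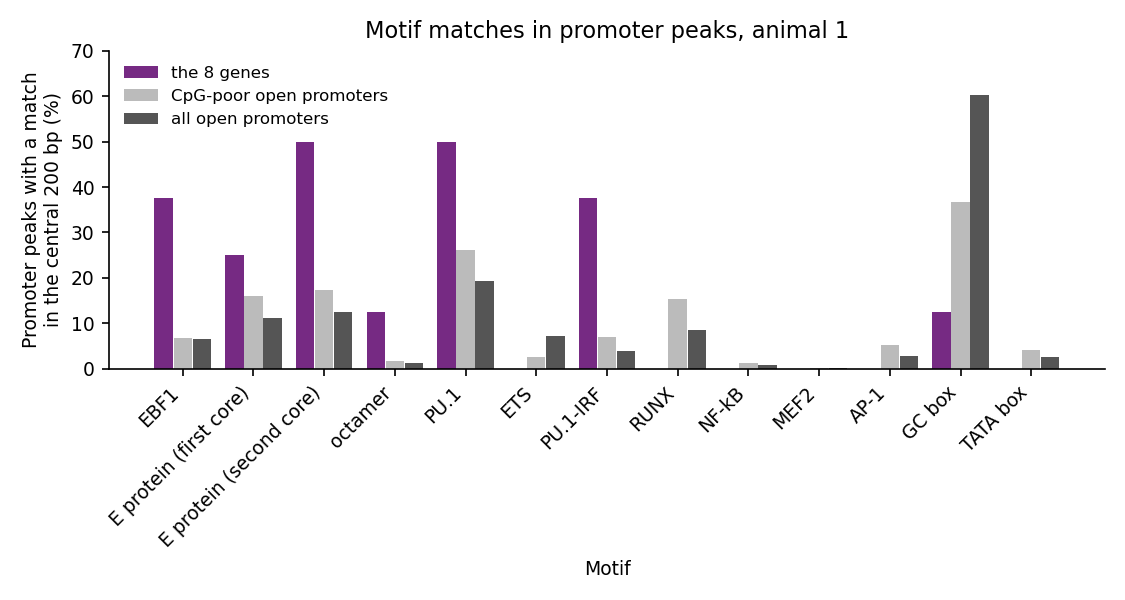
Percent of promoter peaks with at least 1 match in the central 200 bp in animal 1, for each motif, in the 8 genes, in CpG-poor open promoters and in all open promoters. EBF1 matched in 3 of the 8 genes against 6.86% of CpG-poor promoters, and the GC box in 1 of 8 against 36.8%.

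A counterpart in the other mouse was found for 57 of 74 peaks (77.03%) of animal 1 and for 57 of 65 peaks (87.7%) of animal 2. The shares over all peaks were 76.5% and 79.0%. For distal peaks of the 8 genes alone, the counts were 28 of 38 (73.7%) and 28 of 29 (96.6%). The shares over all peaks pool every class, and a share over all distal peaks was not computed. Whether these distal shares are unusual is therefore not known. Peaks without a counterpart had heights from 0.466 to 2.99 in animal 1, with a median of 0.845, and from 0.299 to 1.30 in animal 2, with a median of 1.03. The highest of them, 2.99, lay at the promoter of Cr1l and was above 82.01% of all peaks of animal 1. In animal 2 this site had no listed peak, but all 160 bp of it lay in cut-rate intervals with an FDR under 0.05. The medians over all peaks were 0.888 and 1.05. In the other animal, 3 of these 17 and 3 of these 8 peaks still overlapped an interval with an FDR under 0.05. The same share was not computed over all peaks without a counterpart. The lowest FDR under each peak of the 8 windows never exceeded 0.0260 in animal 1 or 0.0339 in animal 2. Since only intervals under 0.05 are listed, no value above that could appear.

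At the 55 sites matched 1 to 1, no height differed by more than 2-fold between the animals, as was true of all but 2.41% of matched peaks overall. The median log2 ratio of animal 2 over animal 1 was 0.06, against 0.23 over all 58277 matched peaks. Promoter peaks of the 8 genes leaned to animal 1: 9 of 14 were higher there, against 19.1% of all matched promoter peaks, and their median log2 ratio was -0.04 against 0.26. Of the distal peaks, 12 of 28 were higher in animal 1, against 33.7%, and over all classes 24 of 55, against 28.4%. Set against the median of all matched peaks, the promoter median became -0.27 and the distal median -0.13, so after that scaling both were lower in animal 2. The sites of 1 gene share their surroundings and are not independent, and with 1 library per animal a difference between the mice and between the libraries cannot be told apart. The summed promoter height of the 7 B cell markers outside the 8 genes was 40.4 in animal 1 and 39.3 in animal 2. The macrophage sum was also higher in animal 1, 4.55 against 2.51. The sums were higher in animal 2 for T cell (18.5 and 19.7), dendritic (4.65 and 5.47), erythroid (1.53 and 2.96), NK (1.58 and 1.89), plasma cell (19.3 and 23.97) and stromal or endothelial markers (5.27 and 5.77), and the neutrophil sum was 0 in both. All these sums are unscaled. They were not set against the median log2 ratio of all matched peaks, 0.23, or of matched promoter peaks, 0.26. Their directions therefore cannot be compared with the scaled medians of the 8 genes. The part of these markers in the lean was not tested.

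**Figure D4:**
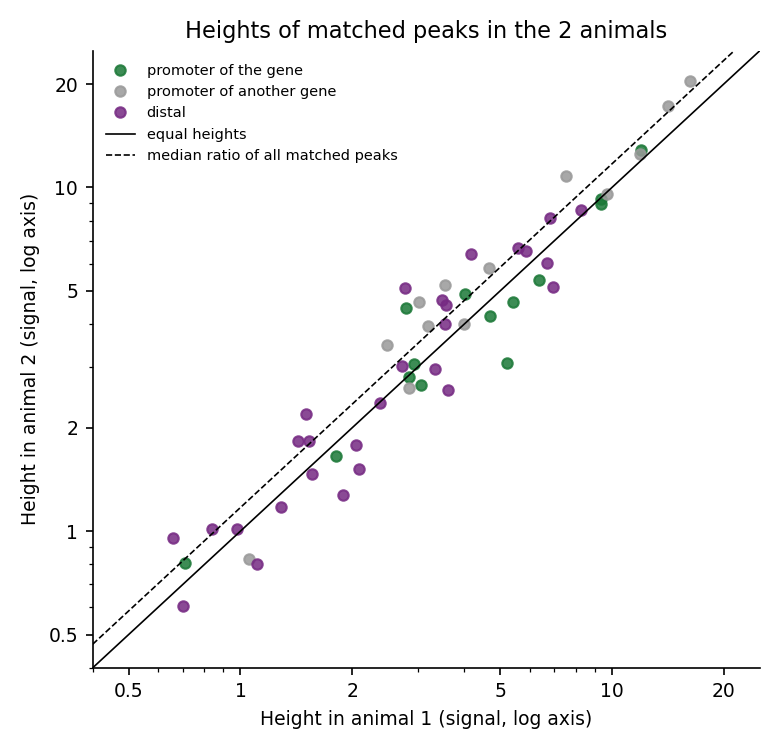
Heights in animal 1 and animal 2 (signal, log axes) of the 55 sites matched 1 to 1 in the 8 windows, coloured by class. The solid line marks equal heights and the dashed line the median ratio of all matched peaks, and 9 of 14 promoter points lie below the solid line.

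Footprints inside the promoter and distal peaks of the 8 genes numbered 155 in animal 1 and 136 in animal 2. Of these, 51.0% and 50.7% overlapped a footprint of the other animal by at least 50% of the shorter one, against 56.4% and 53.5% of all footprints in peaks. By gene, the share ran from 26.7% of 15 at Ms4a1 in animal 1 to all of 3 at Cr2. Distal peaks held 1.17 and 1.38 footprints per 100 bp, against 1.09 and 1.26 over all distal peaks, and promoter peaks 1.52 and 1.51 against 1.20 and 1.27. All peaks within the middle 50% of the members' heights held more, 1.30 and 1.62 (distal) and 1.64 and 1.59 (promoter). The densities of the 8 genes cover their peaks of every height, so the 2 sides are not matched by height.

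Among 24 further genes listed as linked to this pathway, 24 were open at the promoter in animal 1 and 23 in animal 2. Over all protein-coding genes, the shares were 61.4% and 62.6%. Of the 24, Fcrl5, an Fc receptor-like protein, had a peak of 0.845 in animal 1 and none in animal 2. The 3 highest were Ptpn6, the phosphatase recruited by Cd22 and Cd72, with 10.6 ± 0.107, Cd55, a complement regulator, with 10.3 ± 2.63, and Cr1l, a complement regulator next to Cr2, with 9.16 ± 2.32. The medians over the genes open in both animals were 4.58 and 4.93, below those of all open genes.

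The labelled tissue was checked against cell type markers, which the 8 genes share in part. All 10 B cell markers had a promoter peak in both animals, 3 of them among the 8 genes, as did 7 of 8 T cell, 3 of 7 macrophage, 2 of 5 dendritic, 1 of 4 NK, 3 of 5 plasma cell, 2 of 6 erythroid and 2 of 5 stromal or endothelial markers. None of the 6 neutrophil markers had one in either animal. Over all protein-coding genes, 59.8% had one in both animals. The lists are short, so these counts do not measure the share of a cell type.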

How the data were processed

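DNase-seq of spleen from 2 mice, 1 library each, was analysed from the deposited files. Per the deposited file listings, peaks, footprints and cut-rate intervals were made by the authors from each library alone on mm10, without pooling. The aligner, the callers and the read depths were not given in the sources used here. Peak height is a signal whose unit the deposited files do not state. All heights are whole multiples of 1 step per library (0.00716 and 0.00679), so a scaling to depth by the authors is possible but not stated. The deposited cut-rate files give a q-value (FDR) per interval and list only intervals under 0.05. The deposited footprint files hold the constant 0.01, so footprints cannot be ranked.

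Peaks were assigned with GENCODE M21 in Python 3.11.15 with numpy 2.4.6 and pandas 2.3.3, in code tested on simulated peaks. Peaks of the animals were matched by an overlap of at least 1 bp, and pairs matched 1 to 1 gave height ratios. Footprints were placed by their midpoint. Sequences were read from the RefSeq FASTA of GRCm38.p6, the same build as mm10, and 13 short motif cores were searched on both strands. Other settings are given in the closing section. The text names all 8 genes, their promoter peaks, their highest distal peaks, peaks over 5 high in both animals, and of the pathway genes the 3 highest and those without a promoter peak in both. Upstream promoter sequence is shown for Cd79a, Cr2 and Cd22. That of the other genes is not reported here. The other peaks of the 8 genes that are named, the printed footprints, the CTCF-type core and the CpG limit were chosen after their values were seen. The genes and lists were chosen with earlier results of these data known. No contrast exists, so no test was run.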

Additional observations from a re-analysis of the deposited data

How the results depend on the processing

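Of 123 values recomputed under another setting, 115 stayed within the spread between the animals or sites (counts within 1.5 times) and 8 moved. For promoter heights, leaving out either animal could not pass that limit by construction. Those values are part of the 115 but carry no information on stability. The median log2 ratios over all and over distal sites changed sign, as given below. A promoter peak at all 8 genes held under each setting tried. With a promoter of 2 kb, the median promoter height over the 8 genes went from 5.47 to 6.01, through Cd72 alone (3.003 to 6.14). The mean number of peaks in the windows, 69.5, became 106 with 50 kb on either side and 22 in the gene bodies alone. The distal count, 33.5, became 55 and 6.5 under the same settings, and 50.5 when promoters of other genes counted as distal. Of 22 pairs of a gene and a motif with a match in animal 1, 9 had the match inside a footprint widened by 5 bp. Without either animal, the distal count lay between 29 and 38, the footprint count between 136 and 155 and the median promoter height between 5.13 and 5.80. The median log2 ratio over all matched sites, 0.06, became -0.16 after the median of all matched peaks was subtracted and -0.20 after that of promoter peaks, and the distal median, 0.10, became -0.13 and -0.16. The cause of these shifts was not tested. No paired analysis was possible because the 2 libraries form 1 group. The unstated depth and the 2 animals limit the precision.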

Other observations

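The 2 tallest peaks in the 8 windows belonged to neighbouring genes. The promoter of Tesk1, a kinase gene downstream of Cd72, reached 16.2 in animal 1 and 20.5 in animal 2. A peak at a start of Arhgef1, a gene next to Cd79a, reached 14.1 and 17.2. The promoter of Rps19, a ribosomal protein gene on the other side of Cd79a, reached 11.9 and 12.5. All 3 were higher than the promoter of the B cell gene they adjoin. The promoter of Cr1l, at the far end of the window of Cr2, was 7.52 and 10.8. In the window of Cd79a, 9 of 13 peaks in animal 1 and 11 of 15 in animal 2 were promoters of other genes, whereas the windows of Cd22, Ms4a1 and Cd180 held no peak of that kind. Gh, the growth hormone gene, known for its expression in the pituitary, had a peak within 1 kb of its start beside Cd79b, 3.03 high in animal 1 and 4.66 in animal 2.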
